A study of Mus musculus with 13 samples.

Results

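AP-1 and immediate early genes were examined in wild-type mouse embryonic fibroblasts (MEFs). The set held 10 genes, Fos, Fosb, Fosl1, Fosl2, Jun, Junb, Jund, Egr1, Arc and Atf3, out of 57010 genes in the deposited tables. They were chosen from their expected counts over the 4 groups, with earlier results of these data known. Their levels, fold changes and calls past thresholds are therefore a description only, and test nothing about the set. RNA was sequenced from control MEFs without drug, from untreated senescent MEFs (SnCs), and from SnCs given Fucoidan-FV, a fucose-rich sulfated polymer from the seaweed Fucus vesiculosus, at 100 or 300 μg/mL for 12 h. Senescence was induced in those 3 groups by 24 h in 2 μM etoposide, a topoisomerase II poison, and a further 5 days without the drug, and the control group had neither agent. Each group held cells of mice 4, 5 and 6. Control mouse 5 was sequenced as 2 libraries, 5(1) and 5(2), whose counts were summed, so 13 libraries gave 12 samples.

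AP-1 is a dimer of basic leucine zipper proteins. A Fos family protein pairs with a Jun family protein, whereas Jun proteins also pair with each other and with ATF proteins, and the dimers bind short palindromic sites in the promoters and enhancers of genes for proliferation, matrix remodelling and stress responses. Immediate early genes are transcribed within minutes of a growth factor or stress signal without new protein synthesis, mainly through serum response factor with its ETS partners downstream of ERK and through CREB. Fibroblasts are the classical cells for this response to serum, and AP-1 is also known as an organizer of the enhancers of senescent fibroblasts.

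Promoter sequences from the RefSeq table on build GRCm38.p6 are shown for Fos, Jun and Atf3, because the text compares founding members of the Fos and Jun families with a stress-induced relative. The table held 7 of the 10 genes, and Fosl1, Egr1 and Arc had no entry. Each line gives the 250 bases before the annotated start, 5′ to 3′ in the sense of the gene. Capitals mark matches on either strand to TGACGT, the core of the cyclic AMP response element (CRE), to TATAAA, or to the AP-1 site TGANTCA. The windows were chr12:85473640-85473889 on the plus strand for Fos, chr4:95052223-95052472 on the minus strand for Jun, and chr1:191183334-191183583 on the minus strand for Atf3.
Fos: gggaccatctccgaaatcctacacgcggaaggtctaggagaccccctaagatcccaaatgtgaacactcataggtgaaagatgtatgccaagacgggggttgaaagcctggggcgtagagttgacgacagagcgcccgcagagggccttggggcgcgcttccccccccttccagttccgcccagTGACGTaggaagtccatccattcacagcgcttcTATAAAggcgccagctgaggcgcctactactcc
Jun: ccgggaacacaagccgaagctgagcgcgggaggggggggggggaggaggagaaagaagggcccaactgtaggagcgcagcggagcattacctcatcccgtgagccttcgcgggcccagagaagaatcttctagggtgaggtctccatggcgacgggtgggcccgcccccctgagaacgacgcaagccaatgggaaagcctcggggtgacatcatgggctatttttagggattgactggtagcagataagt
Atf3: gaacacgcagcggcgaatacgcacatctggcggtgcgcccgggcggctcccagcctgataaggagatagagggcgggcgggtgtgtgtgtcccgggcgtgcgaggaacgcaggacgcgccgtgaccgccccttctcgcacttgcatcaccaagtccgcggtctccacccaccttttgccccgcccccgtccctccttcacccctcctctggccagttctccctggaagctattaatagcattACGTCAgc
The Fos window held a CRE core starting 66 bases and a TATAAA starting 33 bases before the start. The Atf3 window held a CRE core on the other strand starting 8 bases before it, and the Jun window held none of these letters. A CRE core was found in 2 of the 7 windows, Fos and Atf3, and in 6.47% of all 32851 windows of that length. TATAAA was found in 1 of the 7, against 12.4% of all windows. No window of the 7 held TGANTCA, which 6.75% of all windows held. The CArG box, the site of serum response factor, was found in none of the 7 and in 1.47% of all windows. Full CRE palindromes hold the core on both strands and were counted once. The EGR site GCGNGGGCG was found in the windows of Fosb and Fosl2, and in 4.70% of all windows. These matches describe letters in a short window only. Bases further upstream were not searched, so a site absent here may lie outside the window.

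The libraries held 22782536 to 31278750 gene counts. The summed level of 8 fibroblast markers was 10595 to 16508 CPM, counts scaled to a total of 1000000, over the 12 samples. Dcn of that list was at 0.726 to 1.57 CPM in control MEFs and 12.7 to 22.9 CPM in SnCs. With Fucoidan-FV it was at 37.5 to 168 CPM. Vim was at 6735 to 9061 CPM in SnCs and 4016 to 5945 CPM with Fucoidan-FV. The 8 neuron markers summed to 0.188 to 5.78 CPM, most of it Camk2a, with Rbfox3 and Snap25 at 0 in 10 and 11 of the 12 samples. Blood cell markers summed to 0.564 to 4.04 CPM in control MEFs and 2.81 to 13.7 CPM in the other 9 samples. The muscle list was almost all Acta1 and ran from 74.6 to 121 CPM in control and untreated senescent samples and from 13.7 to 51.3 CPM in treated ones, with Myod1 and Myog at or near 0. Endothelial and epithelial markers summed to at most 1.99 CPM. The part of these shifts in the results was not tested.

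Libraries also stood apart by transcript structure, which bears on the Jun genes. For genes with over 95% of their exonic bases in a single annotated transcript (2180 tested genes), the median log2 CPM was 1.89 higher in library 5(2) than in 5(1) of the same control mouse, whereas for genes under 50% (7347 genes) it was 0.19 lower (log2 difference of -0.19). Jun, Junb and Jund belonged to the former set with 100% of their bases, Fosl2 had 79.9%, Fosl1 78.0% and Fos 63.6%, while Fosb had 39.4% and Atf3 18.9%. Between these libraries of 1 mouse the level differed by 3.14 on the log2 scale for Junb, 2.61 for Jun, 1.78 for Fos, 1.66 for Jund, 1.20 for Fosl2 and 1.03 for Egr1, each higher in 5(2). Fosl1 went the other way, with 26.5 CPM in 5(1) and 15.2 CPM in 5(2).

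Counts were scaled with TMM factors to CPM, and fold changes were fitted with edgeR over all 15034 genes that passed a filter on low counts, among them all 10 genes of the set. A gene was called a differentially expressed gene (DEG) at an adjusted p below 0.05 and a log2 fold change beyond 1 in either direction, and log2 fold changes carry their standard error (SE). Between SnCs and control MEFs none of the 10 was a DEG, where 8.42% of all tested genes were. With 100 μg/mL Fucoidan-FV against untreated SnCs, 2 of the 10 were DEGs, Fosl1 and Arc, where 2.69% of all tested genes were, and both were lower, as were 1.60% of all. With 300 μg/mL only Fosl1 was a DEG, where 1.64% of all genes were called and 0.885% were called lower. Between the doses none was called, where 0.00665% of all genes were. Since these contrasts belong to the values that chose the genes, the counts are a description. Both dose comparisons share the untreated SnCs. In bulk RNA, fewer cells that express a gene and less RNA per cell cannot be told apart.

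**Figure D1:**
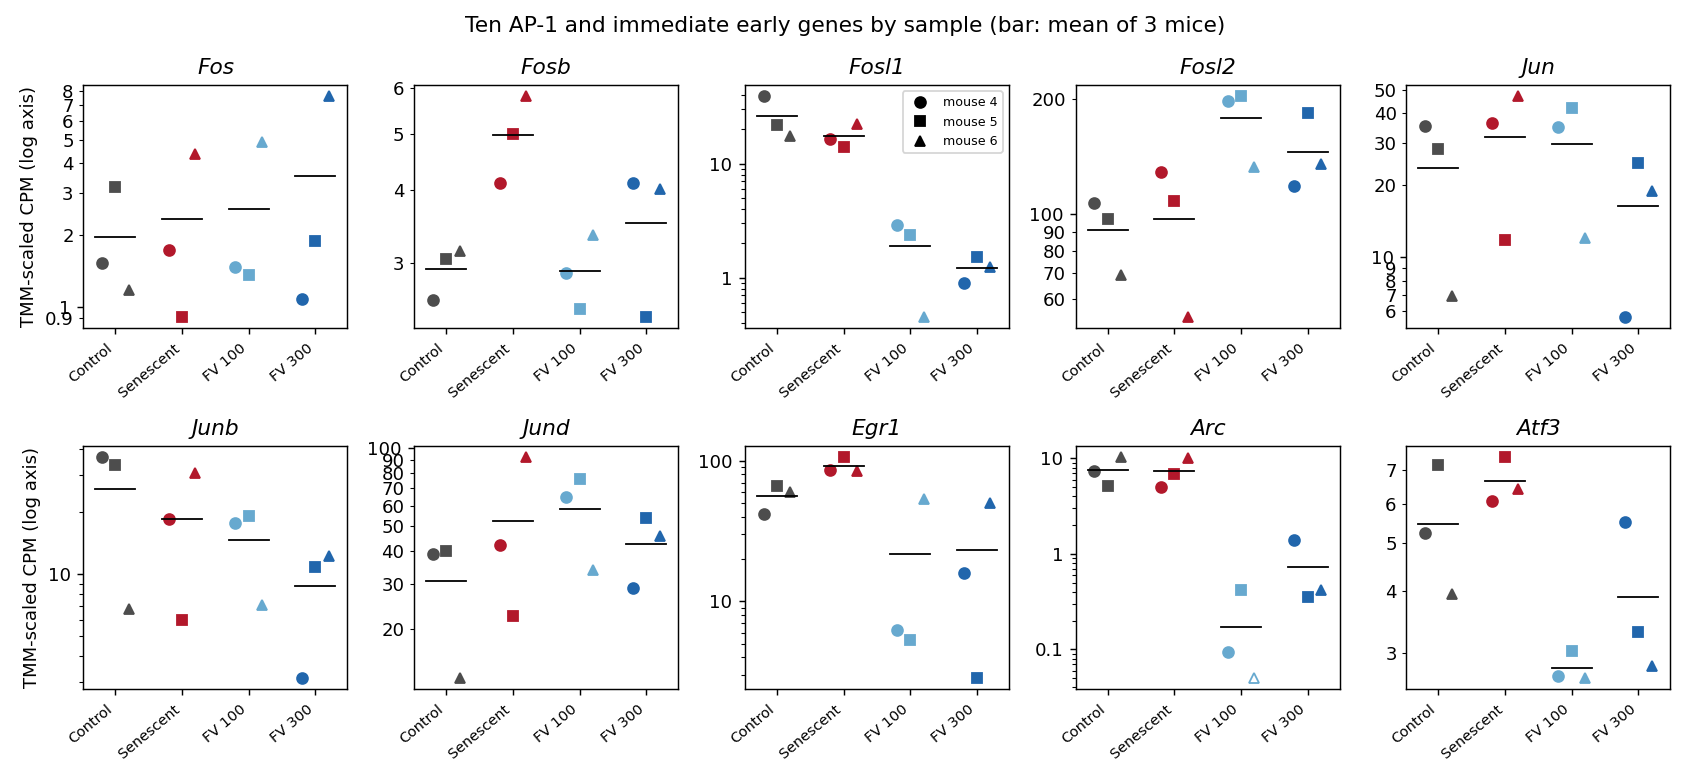
TMM-scaled CPM of the 10 genes on log axes for control MEFs, untreated SnCs and SnCs with 100 or 300 μg/mL Fucoidan-FV (FV 100, FV 300), with a symbol per mouse and a bar at the mean of 3 mice. Fosl1 and Arc sat below all control and senescent samples at both doses, the open triangle marks Arc at 0 counts drawn at the foot of its axis, and Egr1 of mouse 6 stayed at 50.4 to 53.3 CPM in the treated groups.

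Fosl1 encodes FRA-1, a Fos protein without the long transactivation domain of c-Fos, itself induced by ERK signaling and AP-1. The gene (ENSMUSG00000024912, GRCm39 chr19:5497575-5505974, plus strand) was measured at 39.2, 21.8 and 17.6 CPM in control mice 4, 5 and 6 and at 16.4, 13.9 and 22.4 CPM in untreated SnCs. It fell to 2.88, 2.39 and 0.450 CPM with 100 μg/mL and to 0.892, 1.53 and 1.24 CPM with 300 μg/mL. Every treated sample lay below every control and senescent sample, and the control and senescent groups overlapped. The log2 fold change against SnCs was -3.20 ± 0.56 (SE) with 100 μg/mL, a 9.18-fold decrease, and -3.84 ± 0.58 with 300 μg/mL, a 14.3-fold decrease. The mice differed in size at the lower dose, with log2 differences of -2.48, -2.51 and -5.43 in mice 4, 5 and 6, against -4.10, -3.13 and -4.10 at the higher dose. Against control MEFs the log2 fold changes were -3.78 ± 0.57 and -4.42 ± 0.59. In a fit of the compared groups alone the value at 100 μg/mL was -3.07 and Fosl1 was not a call there.

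In GENCODE vM39, 57.2% of the exonic bases of Fosl1 lay over Ccdc85b on the opposite strand, a gene for a protein that binds leucine zippers. Whether reads were counted by strand is not given in the sources used here, so the reads of this pair may not be separable. Ccdc85b was measured at 55.6 to 115 CPM in SnCs, 22.1 to 28.5 CPM with 100 μg/mL and 25.8 to 31.6 CPM with 300 μg/mL. The fitted log2 fold change was -1.57 (adjusted p = 0.00792) and -1.39 (adjusted p = 0.0188) in edgeR's quasi-likelihood test. These are smaller decreases than the fitted values of Fosl1, and this difference between the genes was not tested.

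Fos encodes c-Fos, the archetypal immediate early factor with a short-lived message. The gene (ENSMUSG00000021250, chr12:85520658-85524047, plus strand) was low throughout, at 1.53, 3.18 and 1.17 CPM in control mice 4, 5 and 6 and 1.73, 0.905 and 4.38 CPM in SnCs. It was measured at 1.47, 1.36 and 4.91 CPM with 100 μg/mL and 1.09, 1.88 and 7.63 CPM with 300 μg/mL. The groups overlapped, and mouse 6 was the highest of its group in the 3 etoposide groups but the lowest among the controls. The raw counts behind these levels ran from 21 to 184. Log2 fold changes were 0.14 ± 0.82 with 100 μg/mL and 0.59 ± 0.82 with 300 μg/mL, both smaller than their SE.

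Fosb encodes FosB, which accumulates as a truncated stable form in chronically stimulated neurons. It was measured at 2.59, 3.04 and 3.15 CPM in control MEFs and at 4.12, 5.00 and 5.81 CPM in SnCs, with no overlap. The values were 2.88, 2.50 and 3.36 CPM with 100 μg/mL and 4.11, 2.42 and 4.02 CPM with 300 μg/mL. All treated samples lay below all untreated SnCs, narrowly for mouse 4 at 300 μg/mL, and they overlapped the controls. The log2 fold changes were 0.76 ± 0.40 for SnCs against control, -0.77 ± 0.40 with 100 μg/mL and -0.50 ± 0.39 with 300 μg/mL, none of which passed the thresholds.

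Fosl2 encodes FRA-2, the other Fos protein without a strong transactivation domain. Its levels were 107, 97.1 and 69.1 CPM in control MEFs, 129, 108 and 53.6 CPM in SnCs, 198, 204 and 133 CPM with 100 μg/mL, and 118, 184 and 135 CPM with 300 μg/mL. The 100 μg/mL samples lay above all SnCs and all controls, whereas the 300 μg/mL samples overlapped the SnCs. Its log2 fold changes were 0.88 ± 0.31 and 0.59 ± 0.30, and neither was a call. With a correction of each sample for transcript structure, length and GC content the values were 0.31 and 0.34. The fitted increase at 100 μg/mL was thus smaller and close to that at 300 μg/mL. DESeq2 gave 0.97 at 100 μg/mL, and leaving out single samples gave 0.75 to 1.34. No alternative made Fosl2 a call at that dose. The lowest adjusted p among the alternatives, which used edgeR's quasi-likelihood test or DESeq2, was 0.00564. That fit missed the call because its log2 fold change was not beyond 1.

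Across the set, 1 gene, Fosl2, was higher in every sample with 100 μg/mL than in every SnC sample, as were 11.2% of all tested genes, and 5 genes, Fosb, Fosl1, Egr1, Arc and Atf3, were lower without overlap, as were 15.0% of all. At 300 μg/mL, in a comparison with the same SnC samples, 5 genes were lower without overlap, again Fosb, Fosl1, Egr1, Arc and Atf3, beside 10.2% of all genes. Fosb and Egr1 were higher in SnCs than in control MEFs without overlap, as were 14.2% of all genes. For Egr1 this held with the summed libraries of control mouse 5, since library 5(2) alone held 90.0 CPM, above senescent mice 4 and 6, and 5(1) held 43.9 CPM.

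**Figure D2:**
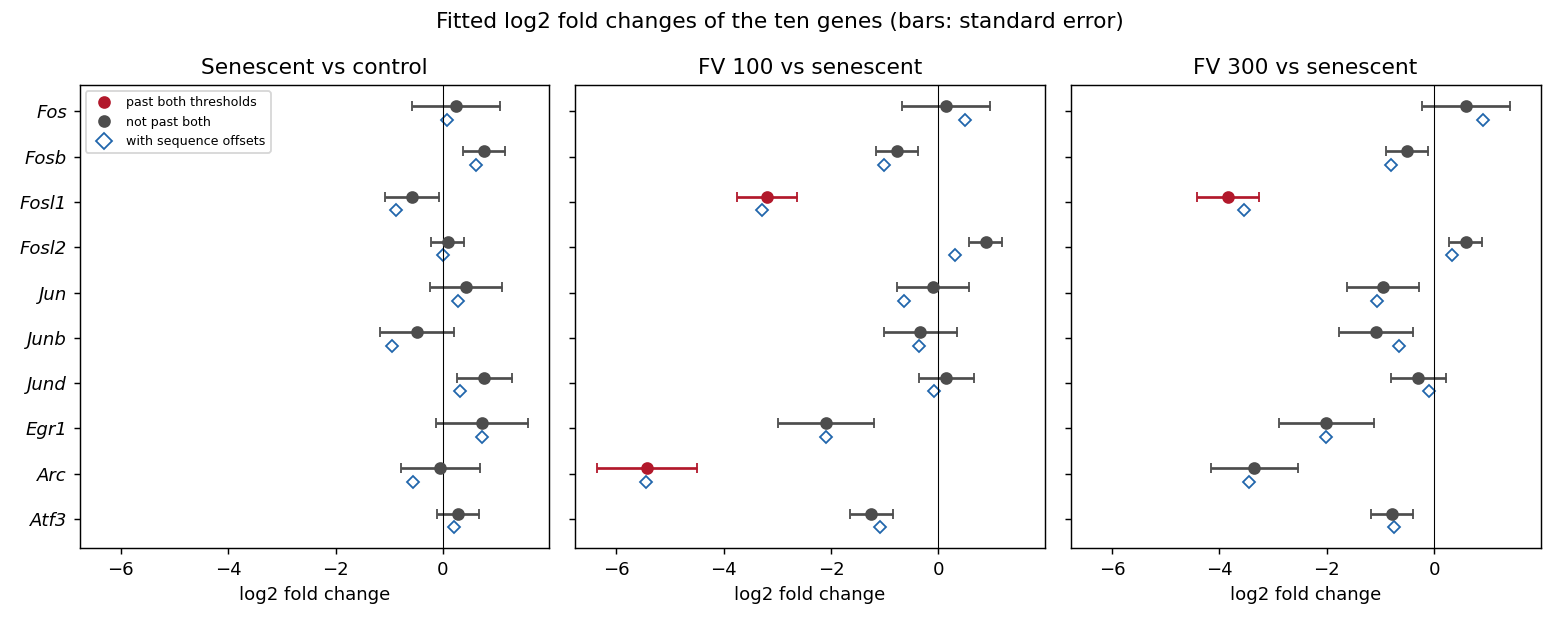
Fitted log2 fold changes (horizontal axis) of the 10 genes in 3 comparisons, with bars of 1 SE, in red where both thresholds were passed, and open diamonds for the fit corrected for the transcript-structure shift of each sample. Fosl1 and Arc lay furthest below 0 at both doses, and the diamond of Fosl2 at 100 μg/mL lay at 0.31 against 0.88.

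Jun, Junb and Jund encode the 3 Jun proteins, of which c-Jun is the strong activator, JunB is often antagonistic to it and JunD is the constitutive member linked to quiescence and antioxidant defence. Jun (ENSMUSG00000052684, chr4:94937271-94940459, minus strand, a single exon) was measured at 35.4, 28.2 and 6.91 CPM in control mice 4, 5 and 6, and at 36.4, 11.8 and 47.0 CPM in SnCs. It was at 35.1, 41.9 and 12.1 CPM with 100 μg/mL and at 5.62, 24.8 and 18.9 CPM with 300 μg/mL. The groups overlapped in every comparison, and samples within a group differed up to several-fold.

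Junb was measured at 36.9, 33.6 and 6.77 CPM in control MEFs, 18.5, 5.99 and 30.8 CPM in SnCs, 17.7, 19.0 and 7.06 CPM with 100 μg/mL, and 3.14, 10.8 and 12.2 CPM with 300 μg/mL. Jund was measured at 38.9, 40.03 and 12.97 CPM, 42.3, 22.5 and 92.6 CPM, 64.8, 75.8 and 34.0 CPM, and 29.0, 53.9 and 45.7 CPM in the same order. All 3 Jun genes were lowest in mouse 6 among the controls and with 100 μg/mL, in mouse 5 among SnCs, and in mouse 4 with 300 μg/mL. The libraries with these low values were also the lowest of their group for the single-transcript genes, whose median log2 deviation was -1.33 in control mouse 6, -0.75 in senescent mouse 5, -0.16 with 100 μg/mL in mouse 6 and -0.90 with 300 μg/mL in mouse 4.

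No log2 fold change of the Jun family was a call. For SnCs against control they were 0.43 ± 0.67 for Jun, -0.48 ± 0.68 for Junb and 0.77 ± 0.51 for Jund. With 100 μg/mL they were -0.10 ± 0.67, -0.34 ± 0.68 and 0.15 ± 0.51, and with 300 μg/mL -0.95 ± 0.67, -1.08 ± 0.69 and -0.29 ± 0.51. With the correction for transcript structure the values were 0.29, -0.95 and 0.32 for SnCs against control, -0.64, -0.36 and -0.08 with 100 μg/mL, and -1.06, -0.65 and -0.09 with 300 μg/mL. No Jun gene was a call under any alternative that was run. Jund shares 52.6% of its exonic bases with Gm11175 on the opposite strand and Jun 16.6% with Junos, which adds to the uncertainty of their levels.

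**Figure D3:**
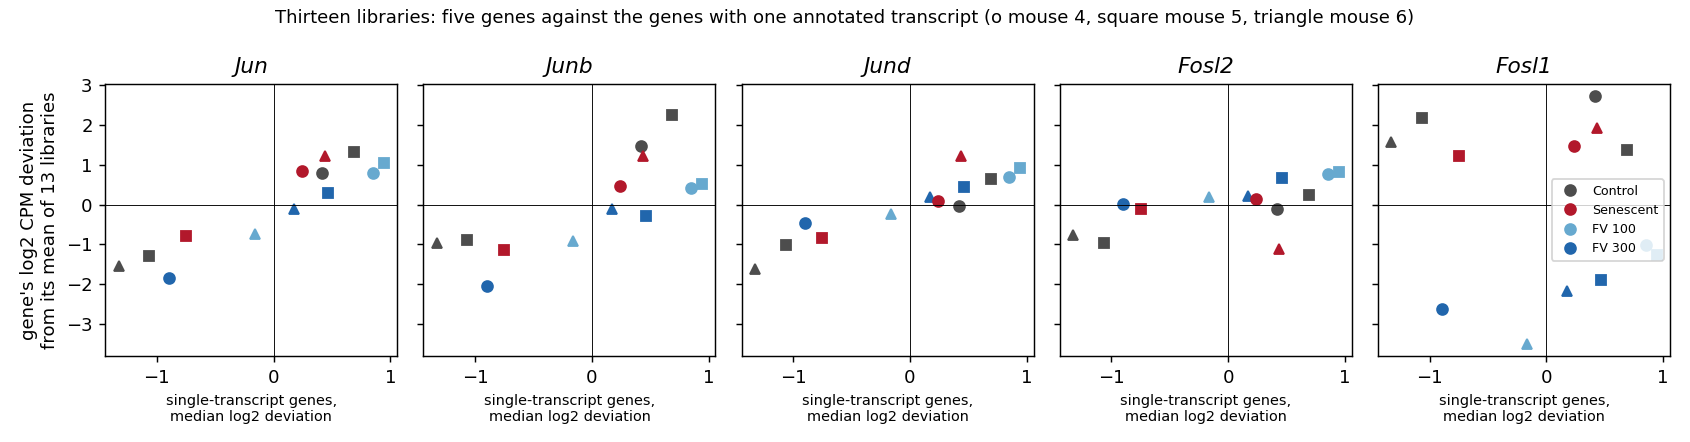
Log2 CPM of 5 genes in each of the 13 libraries, as the deviation from the gene's mean (vertical axis), against the median deviation of the 2180 genes with over 95% of their exonic bases in 1 transcript (horizontal axis), coloured by group with a symbol per mouse. Jun, Junb and Jund rose along the horizontal axis across groups, whereas Fosl1 separated by treatment, with its 6 treated libraries between -3.50 and -1.01.

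Atf3 encodes a stress-induced ATF/CREB protein that pairs with Jun proteins and often represses. It (ENSMUSG00000026628, chr1:190902493-190950241, minus strand) was measured at 5.23, 7.18 and 3.95 CPM in control MEFs and 6.07, 7.46 and 6.42 CPM in SnCs. It was at 2.69, 3.03 and 2.66 CPM with 100 μg/mL and 5.51, 3.31 and 2.82 CPM with 300 μg/mL. The 100 μg/mL group was the tightest of the 4, at 2.80 ± 0.20 CPM (SD, n = 3), and lay below every control and SnC sample, whereas at 300 μg/mL mouse 4 sat close to the SnCs. Fitted log2 fold changes were -1.25 ± 0.39 and -0.78 ± 0.39. Neither was a call in the edgeR fit, and DESeq2 called the former.

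Egr1 encodes a zinc finger factor that is induced by ERK signaling through serum response factor and binds GC-rich promoters. It was measured at 41.8, 66.2 and 59.7 CPM in control mice 4, 5 and 6 and at 86.2, 107 and 84.4 CPM in SnCs, without overlap for the summed libraries of control mouse 5. After treatment the values were 6.29, 5.30 and 53.3 CPM at 100 μg/mL and 15.9, 2.85 and 50.4 CPM at 300 μg/mL. Mice 4 and 5 fell far below the controls at both doses, whereas mouse 6 stayed within the control range. The log2 differences from the SnCs of the same mouse were -3.76, -4.31 and -0.66 with 100 μg/mL, and -2.43, -5.20 and -0.74 with 300 μg/mL. Over the 3 mice the log2 fold changes were -2.09 ± 0.89 and -2.01 ± 0.89, and neither was a call. Without mouse 6 of the 100 μg/mL group the former was -4.00 and became a call, whereas without mouse 6 of the 300 μg/mL group the latter was -3.30 and was not a call. Egr1 was also called at both doses when genes with low counts were kept in the fit. The files list a transcript of Egr1 that was not found in the annotation used here, so its level was left without the transcript-structure correction.

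Arc encodes a cytoskeletal protein of synapses, and is an immediate early gene best known from neurons that serum and growth factors also induce in fibroblasts. The gene (ENSMUSG00000022602, chr15:74540932-74544419) was measured at 7.31, 5.18 and 10.4 CPM in control MEFs and 5.05, 6.90 and 10.2 CPM in SnCs. With 100 μg/mL it was at 0.0939 and 0.417 CPM in mice 4 and 5 and at 0 counts in mouse 6, where a count of 0 allows up to 0.104 CPM (3 counts, counting error only). With 300 μg/mL it was at 1.40, 0.356 and 0.415 CPM. The raw counts were 158, 160 and 299 in SnCs, 3, 11 and 0 with 100 μg/mL, and 36, 10 and 10 with 300 μg/mL. All treated samples lay below all untreated ones. The log2 fold change was -5.44 ± 0.93 with 100 μg/mL and -3.34 ± 0.82 with 300 μg/mL. Arc was called at the lower dose only in the edgeR fit, and the fitted difference between the doses was 2.09 ± 0.88 on the log2 scale, which was not a call. The call at 100 μg/mL was lost without mouse 4 of that group, where the log2 fold change was -5.14, and without mouse 5 of that group the value was -7.12, still a call. At 300 μg/mL Arc was called by DESeq2, without the low-count filter and with the transcript-structure correction. With that correction and the replicate block together it was -3.46 and not a call, nor was it without mouse 4 of the 300 μg/mL group, at -4.25.

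Levels of different genes were compared as TPM, transcript abundance scaled for length and depth. In SnCs the order was Jund at 45.7 ± 25.8 TPM (SD, n = 3), Fosl2 at 39.8 ± 22.8, Egr1 at 35.8 ± 6.7, Fosl1 at 21.7 ± 2.0, Junb at 14.8 ± 8.8, Jun at 13.6 ± 7.3, Atf3 at 7.48 ± 4.51, Arc at 3.26 ± 0.70, Fos at 2.77 ± 1.99 and Fosb at 1.84 ± 0.11 TPM. Neighbours in this order differed by less than the larger SD of the pair, except Egr1 and Fosl1. With 100 μg/mL Fosl2 led at 84.5 ± 16.5 TPM with Jund at 74.5 ± 33.6, and Fosl1 was eighth at 3.63 ± 2.92 TPM. With 300 μg/mL Fosl2 was at 72.5 ± 19.2 TPM and Fosl1 at 1.75 ± 1.32. Among the messages for Fos proteins the mean TPM of Fosl1 was thus below that of Fosl2 in all 4 groups. In control MEFs it was 27.6 ± 13.8 against 35.7 ± 3.4. Fosl1 was the higher in control mouse 4 (42.4 against 39.0 TPM) and senescent mouse 6 (23.7 against 13.65 TPM).

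The genes whose pattern over the 12 samples was most like a member were found by the root mean square difference of log2 CPM, each gene centred on its own mean. Nearest to Fosl1 were Dusp5, an ERK phosphatase induced by ERK, at 0.58, Hmga1, a chromatin protein, at 0.60, and Etv4, an ETS factor induced by ERK, at 0.62, where Fosl1 itself varied by 2.06. Etv4 was at 33.3, 38.8 and 43.4 CPM in SnCs and at 4.70, 4.96 and 2.39 CPM with 100 μg/mL. Hmga1 was at 288, 332 and 344 CPM in SnCs and at 27.8, 33.5 and 23.9 CPM with 100 μg/mL. Both genes were picked for likeness to Fosl1 over these same samples, so their falls follow from that choice and are a description. Nearest to Arc were Gm50394 at 0.57, Serpinb2, encoding a serine protease inhibitor, at 0.81, and Etv4 at 0.92, where Arc itself varied by 2.42. Gm50394 (chr19:53516851-53518086) overlaps Dusp5 (chr19:53517532-53530862) in position, so the reads of these genes may not be separable. Nearest to Egr1 were Raet1e, Rps2-ps6 and Enpp1 at 1.03 to 1.07, where Egr1 itself varied by 1.71, so no gene followed it as closely. Nearest to Fos were Smoc1 at 0.53, Pex11a at 0.55 and Prdm6 at 0.60, against 0.91 for Fos itself.

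Lists of related genes, holding 96 different genes of which 91 were tested, were set beside the 10. The lists were written from general knowledge of AP-1, but with earlier results of these data known. Their shares and medians are therefore a description, and no test of a list was run. Adjusted p-values for them are from edgeR's quasi-likelihood test over all tested genes. Between SnCs and control MEFs 6 of the 91 were DEGs, 3 higher and 3 lower, a share of 6.59% beside the 8.42% of all genes. At 100 μg/mL 17 of the 91 were DEGs, 2 higher and 15 lower, or 18.7% beside 2.69%. With 300 μg/mL the count was also 17, 2 higher and 15 lower, or 18.7% beside 1.64%, in a comparison that shares the untreated SnCs. Over all genes with 100 μg/mL 165 of 405 calls were higher, against 174 of 321 with the RLE factors, under which the listed genes kept 2 higher and 15 lower calls.

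AP-1 relatives and dimer partners, the BATF, ATF and MAF proteins with Jdp2 and Ddit3, had 10 of 13 genes tested. In SnCs against control MEFs 1 rose and none fell, a share of 10% beside the 8.42% of all genes called. The median log2 fold change was -0.02 beside 0.07 over all genes. Ddit3, which encodes the stress factor CHOP, was at 18.5, 22.4 and 18.9 CPM in control MEFs and 38.2, 39.1 and 78.4 CPM in SnCs, a log2 fold change of 1.38 ± 0.29 (adjusted p = 0.00808). Mars1 lies over 88.8% of its exonic bases on the opposite strand. The call was lost without control mouse 4 (1.32, adjusted p = 0.0517), without senescent mouse 6 (0.96) and with library 5(2) alone for control mouse 5 (1.09, adjusted p = 0.0621).

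In the same list with Fucoidan-FV 1 fell at each dose and none rose, a share of 10% beside 2.69% and 1.64% of all genes. The medians were 0.06 and 0.09. Maff encodes a small MAF protein without a transactivation domain. It was at 93.0, 104 and 96.8 CPM in SnCs, 35.0, 30.8 and 22.3 CPM with 100 μg/mL and 43.0, 34.5 and 30.4 CPM with 300 μg/mL, with no overlap. The log2 fold changes were -1.74 ± 0.21 (adjusted p = 0.00142) and -1.44 ± 0.21 (adjusted p = 0.00463), and Maff was called under all 14 alternatives at each dose.

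Other immediate early genes had 36 of 37 genes tested. In SnCs 1 fell, Klf10, a TGF-beta-inducible repressor, from 92.7, 79.7 and 99.9 CPM in control MEFs to 47.5, 41.4 and 35.9 CPM (log2 fold change -1.13 ± 0.26, adjusted p = 0.0132). Its call was lost with library 5(2) alone for control mouse 5 (-0.88, adjusted p = 0.146) and with both libraries as separate samples (-1.04, adjusted p = 0.0584). As the only call Klf10 was 2.78% of the tested list, beside 8.42% of all genes, and the median of the list was -0.14.

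With Fucoidan-FV 8 of these 36 genes fell and 1 rose at each dose, a share of 25% beside 2.69% and 1.64% of all genes. The medians were -0.31 and -0.59 beside -0.02 and 0.00 over all genes. Egr2, a zinc finger factor related to Egr1, was at 25.1, 32.8 and 51.4 CPM in SnCs, at 1.94, 2.35 and 3.11 CPM with 100 μg/mL and at 0.0388, 1.42 and 4.60 CPM with 300 μg/mL. Its log2 fold changes were -3.88 ± 0.82 (adjusted p = 0.0206) and -4.18 ± 0.83 (adjusted p = 0.0243). Unlike Egr1, it was low in mouse 6 as well. Its call at 100 μg/mL was lost without any of mice 4, 5 and 6 of that group (-3.74, -3.85 and -4.09) or senescent mice 5 and 6 (-3.82 and -3.41), and at 300 μg/mL without mouse 5 of that group (-3.98), without senescent mice 5 and 6 (-4.19 and -3.79) and in a fit of the compared groups alone (-4.16), with adjusted p from 0.0525 to 0.11. Without mouse 6 of the 300 μg/mL group Egr2 gave -5.61 and was a call.

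Egr3, the next family member, was at 4.73, 5.99 and 4.04 CPM in SnCs and at 0.282, 0.114 and 1.04 CPM with 100 μg/mL, which did not pass in the main edgeR fit. At that dose it was called by DESeq2, without the low-count filter and with the transcript-structure correction, with or without the replicate block. With 300 μg/mL it was at 0 counts in mice 4 and 5, which allows up to 0.116 and 0.107 CPM, and at 0.498 CPM in mouse 6. The fitted log2 fold change was -4.90 ± 1.14 (adjusted p = 0.045). The call was lost without mouse 4 or 5 of the 300 μg/mL group (-4.32 and -4.30), without senescent mouse 4, 5 or 6 (-4.86, -4.70 and -4.98) and in a fit of the compared groups alone (-4.88), with adjusted p up to 0.132. Without mouse 6 of the 300 μg/mL group both remaining samples were at 0 counts, and the fitted value of -10.2 there depends on the prior count and is no bound.

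Hbegf, an EGF receptor ligand that is both an immediate early and an AP-1 target gene, fell from 91.9, 63.1 and 111 CPM in SnCs to 23.2, 32.2 and 7.37 CPM with 100 μg/mL (log2 fold change -2.08 ± 0.44, adjusted p = 0.0202). That call was lost without mouse 4 of the 100 μg/mL group (-2.16), without senescent mice 4, 5 and 6 (-1.83, -2.08 and -1.70) and in a fit of the compared groups alone (-1.95). Zfp36l1, which encodes a protein that destabilizes AU-rich messages, was the gene of the list that rose. It was at 30.5, 20.8 and 13.9 CPM in SnCs, 58.2, 54.2 and 106 CPM with 100 μg/mL and 73.4, 53.4 and 101 CPM with 300 μg/mL. The log2 fold changes were 1.74 ± 0.37 (adjusted p = 0.0206) and 1.80 ± 0.37 (adjusted p = 0.0261). With the replicate block for the mouse the latter gave 1.79 with an adjusted p of 0.0555. The call at 100 μg/mL was lost without mouse 4 or 6 of that group (1.88 and 1.37) or senescent mouse 5 (1.82), and at 300 μg/mL without mouse 4 or 6 of that group (1.83 and 1.54) or senescent mouse 5 or 6 (1.80 and 1.60), and at both doses in a fit of the compared groups alone (1.82 and 1.81).

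Upstream factors and kinases, serum response factor with its ETS and MRTF partners, CREB factors and MAP kinases, were all tested (23 genes). With Fucoidan-FV none passed edgeR's thresholds at either dose, where 2.69% and 1.64% of all genes did. At an unadjusted p under 0.05 in that test there were 4 and 2 of the 23 genes, beside 2981 and 2297 of all 15034. The medians were -0.16 and -0.03. DESeq2 also called none of the 23. In SnCs 1 fell, Rps6ka1, which encodes the ERK-activated kinase RSK1, from 15.98, 18.0 and 21.3 CPM in control MEFs to 5.50, 6.90 and 7.71 CPM (log2 fold change -1.46 ± 0.29, adjusted p = 0.00542), a call kept under all 17 alternatives. This 1 call was 4.35% of the list, beside 8.42% of all genes.

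AP-1 target genes had 23 of 24 genes tested. In SnCs 2 of these 23 rose and 1 fell, where 8.42% of all tested genes were called. The median of the list was 0.27 beside 0.07 over all genes. Spp1, which encodes osteopontin, rose from 387, 287 and 477 CPM in control MEFs to 1420, 1289 and 1082 CPM (log2 fold change 1.72 ± 0.27, adjusted p = 0.00129), a call kept under all 17 alternatives. Mmp9, a gelatinase, fell from 3.23, 9.99 and 26.4 CPM to 0.895, 2.11 and 1.26 CPM (-3.22 ± 0.77, adjusted p = 0.0161), and the call was lost without control mouse 6 (-2.22) or senescent mouse 4 (-3.01). Mmp13, a collagenase and a classical AP-1 target, was at 0.213, 0.0785 and 0.0470 CPM in control MEFs and 0.895, 0.388 and 0.883 CPM in SnCs (2.69 ± 0.79, adjusted p = 0.043), with at most 5 and 28 counts a sample. With the replicate block it was 2.56 (adjusted p = 0.0592), and the call was also lost without any control mouse (2.42 to 3.36), without senescent mouse 4 or 6 (2.49 and 2.55) and with either library alone for control mouse 5 (3.05 and 2.29).

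With Fucoidan-FV 7 of the 23 target genes fell and 1 rose at each dose, where 2.69% and 1.64% of all genes were called and 1.60% and 0.885% were called lower. The medians of the list were -0.95 and -1.09 beside -0.02 and 0.00 over all genes. Timp1, Cd44, Phlda1, Hbegf, Plaur and Serpinb2 were among those that fell at both doses. Serpinb2 was at 11.1, 8.10 and 11.8 CPM in SnCs, 0.125, 0.189 and 0.208 CPM with 100 μg/mL and 0.659, 0.320 and 0.539 CPM with 300 μg/mL, with log2 fold changes of -5.87 ± 0.51 (adjusted p = 0.000187) and -4.35 ± 0.46 (adjusted p = 0.000865). Timp1, the metalloproteinase inhibitor, fell from 1140, 1179 and 2479 CPM to 254, 230 and 298 CPM with 100 μg/mL and 325, 244 and 242 CPM with 300 μg/mL, with log2 fold changes of -2.62 ± 0.28 (adjusted p = 0.00056) and -2.57 ± 0.28 (adjusted p = 0.000955). Both genes were called under all 14 alternatives at each dose, with Timp1 at -2.01 at 100 μg/mL without senescent mouse 6. The treated levels of Serpinb2 rested on 4, 5 and 6 raw counts with 100 μg/mL and 17, 9 and 13 with 300 μg/mL.

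Mmp13 was the target gene that rose. It was at 9.30, 8.41 and 13.7 CPM with 100 μg/mL and at 1.94, 5.16 and 14.2 CPM with 300 μg/mL. The log2 fold changes were 3.84 ± 0.71 (adjusted p = 0.0112), called under all 14 alternatives, and 3.28 ± 0.70 (adjusted p = 0.0297). With the replicate block the latter gave 3.15 (adjusted p = 0.0525), and its call was also lost without mouse 5 or 6 of the 300 μg/mL group (3.46 and 2.28), without senescent mice 4, 5 and 6 (3.53, 3.04 and 3.48) and in a fit of the compared groups alone (3.29).

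**Figure D4:**
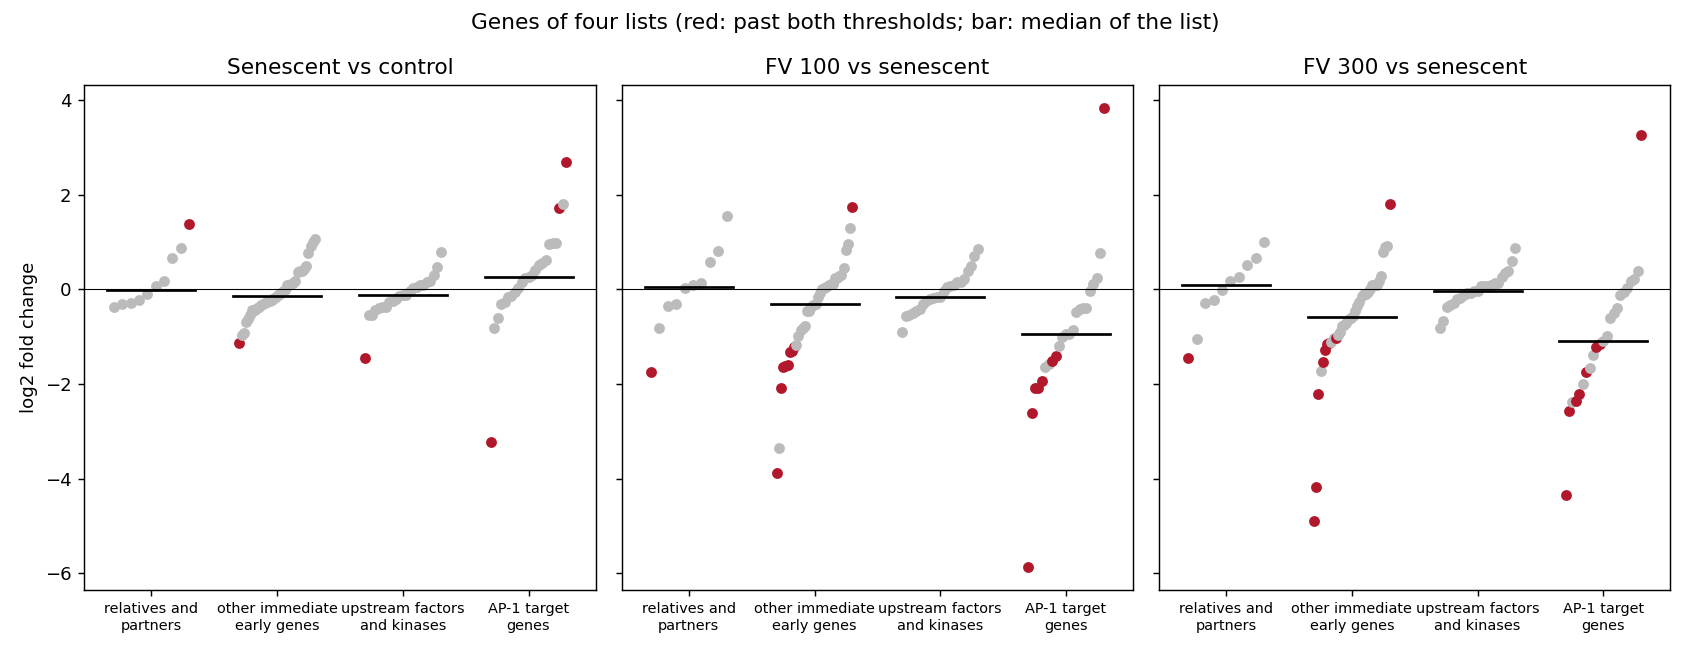
Fitted log2 fold changes (vertical axis) of the genes of 4 lists in 3 comparisons, each point a gene, in red where both thresholds were passed, with a bar at the median of the list. The medians of the AP-1 target genes were 0.27 in SnCs against control and -0.95 and -1.09 with Fucoidan-FV, and those of the upstream factors were -0.12, -0.16 and -0.03.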

How the data were processed

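MEF total RNA was sequenced from stranded total RNA libraries. Per the submitters' processing notes the authors used FastQC 0.12.1, Trimmomatic, STAR 2.7.11b and RSEM 1.3.1 on GRCm39, and deposited RSEM expected counts and TPM per gene. The strand setting is not given in the sources used here. Expected counts of libraries 5(1) and 5(2) were summed, rounded and tested with edgeR 4.0.16 (quasi-likelihood, TMM, filterByExpr with a minimum count of 10 and a total of 15, 1 fit over the 4 groups, Benjamini-Hochberg over 15034 genes). The members and lists were chosen with earlier results of these data known. From each list and comparison the 2 called genes with the largest increase and decrease were named. Of the patterns most like Fos, Fosl1, Egr1 and Arc, 3 genes each with a mean of at least 1 CPM were named. The fit was tested on simulated data. Gene positions came from GENCODE vM39. The mouse number pairs samples per the labels, and over 18 same-mouse pairs of samples in different groups the deviations correlated with a median r of -0.006 (-0.20 to 0.43, 8 over 0.1). The transcript-structure correction fitted each sample's log2 deviations on the share of a gene's exonic bases in a single transcript, gene length and GC content (mgcv 1.9.3). It ran on the 12 samples, after libraries 5(1) and 5(2) were summed. Alternatives were DESeq2 1.42.0, RLE factors, no low-count filter, the compared groups alone, the mouse as a block, adjusted p alone, that correction, each sample left out, and other uses of libraries 5(1) and 5(2). Deposited FPKM were not used. TPM of control mouse 5 is the mean of its libraries. A gene of the target list is counted but not reported here by name.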

Additional observations from a re-analysis of the deposited data

Results flagged for a closer look

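Fos in control library 5(2) stood at 5.13 CPM, far from the other control libraries by Dixon's test over the 4 control libraries, of which 5(1) and 5(2) come from 1 mouse. Library 5(1) held 1.44 CPM. Chance flags about 1 in 20 groups, and 10 genes were examined.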

How the results depend on the processing

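The 10 genes gave 0 calls between SnCs and control MEFs and between the doses under every alternative run. With 100 μg/mL the count of 2 became 1 in a fit of the compared groups alone, where Arc was called and Fosl1 was not, and ran from 1 to 3 when single samples were left out. With 300 μg/mL the count of 1 became 2 with DESeq2, 3 without the low-count filter and 2 with the transcript-structure correction (sequence offsets), was 1 with that correction and the replicate block together, and stayed 1 without each sample. With the replicate block for the mouse the counts were 2 and 1, and 17 and 16 for the listed genes, and it changed no call of a named gene beyond those of Mmp13 and Zfp36l1. Between SnCs and control MEFs the listed genes gave 10 calls instead of 6 by adjusted p alone, and with 300 μg/mL 8 instead of 17 in a fit of the compared groups alone and 6 to 14 without single samples (6 without mouse 6 of the 300 μg/mL group, 7 without senescent mouse 5). Over all genes 405 were called with 100 μg/mL and 246 with 300 μg/mL. DESeq2 called 770 and 606, the fit without the low-count filter 800 and 580, the transcript-structure correction 508 and 377, and the compared groups alone 168 and 101. Without single samples 136 to 365 and 46 to 220 were called, the lowest without mouse 4 of the 100 μg/mL group and mouse 6 of the 300 μg/mL group. No named value past the thresholds changed sign under an alternative, and the cause of these changes was not tested. The depth limits Fos, Arc, Egr2, Egr3, Mmp13 and Serpinb2, which rest on low counts in some samples, and 3 mice a group limit every call. The study's methods name 3 independent biological replicates per group and give general MEF culture conditions. Beyond the mouse number nothing says whether the replicates were cultured apart, so p-values cover the spread between these samples.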
